A study of Mus musculus with 8 samples.

Results

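The genes described are 42 translation initiation and elongation factors, taken by symbol from a list. Each was represented by the 1 probe with the highest mean signal, and all 42 were measured, out of 21528 genes tested on the arrays. Of these 21528, 12939 had a gene symbol. The rest were transcripts counted under the systematic name of their probe, and shares of all genes include them. The cells were J774.1, a long-established line of macrophage-like cells from a BALB/c mouse, and total RNA was read on 8 Agilent arrays in 1 colour. There were 4 groups of 2 biological replicates: cells given Torin1 at 1 µM for 6 h, cells given isorhamnetin at 10 µM for 6 h, cells given tamarixetin at 10 µM for 6 h, and control cells. The time and any vehicle of the control cells are not given in the sources used here. Torin1 inhibits the kinase mTOR in both of its complexes, and isorhamnetin and tamarixetin are isomers, each the flavonol quercetin with 1 hydroxyl group methylated. All groups are the same line, so the values describe 1 cell line and not primary macrophages.

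Translation begins when the factor eIF2 brings the initiator tRNA to the small ribosomal subunit, which eIF3 holds ready, and eIF4E, eIF4G and eIF4A load that subunit onto the capped end of the mRNA. The exchange factor eIF2B recharges eIF2 with GTP, and phosphorylation of eIF2 by stress kinases blocks that step. The kinase mTOR acts on this machinery at the protein level: it phosphorylates the 4E-BP proteins, which otherwise hold eIF4E back, and it favours translation of mRNAs with a terminal oligopyrimidine (TOP) tract, among them those of many elongation factors. The arrays measure the amount of each mRNA, not its translation or any phosphorylation.

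Signals are given in log2 units relative to the 75th percentile of the same array, so a difference of 1 is a doubling. The raw 75th percentile lay between 317.9 and 403.4 signal units, and 43.9% to 54.1% of spots were well above background. Replicate arrays correlated at 0.9918 to 0.997 across genes. All 8 arrays lay on 1 slide: the control and isorhamnetin arrays in row 1, the tamarixetin and Torin1 arrays in row 2. Slide row and group therefore cannot be told apart for Torin1 against control, tamarixetin against control or isorhamnetin against tamarixetin, whereas Torin1 and tamarixetin shared a row, as did isorhamnetin and control. Of the macrophage markers 8 of 8 were well above background on all arrays, as were Cd3e and Cd4 among 4 T cell markers; 0 of 3 B cell, 0 of 3 fibroblast and 0 of 3 epithelial markers were. Every one of the 42 translation factors was well above background on all 8 arrays.

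In the main setting the mRNA of 18 of the 42 factors was lower with Torin1 than in control cells and that of 4 higher (limma over all genes, Benjamini-Hochberg adjusted p under 0.05). Of all genes tested, 30.1% were called lower and 19.3% higher in the same comparison. The 22 factors called are 52.4% of the 42, against 49.4% of all genes, so the share called was near that of all genes tested. Every factor was well above background on all 8 arrays, which was not required of the genes tested. With only such probes kept, 59.8% of 16984 genes were called, 6459 lower and 3689 higher. In that setting 23 of the 42 factors were called, 18 lower and 5 higher. The median log2 fold change of the factors was -0.11, against -0.10 for all genes, with 19 factors above and 23 below the median of all genes. The changes were small: the most negative was -0.67 (Eif2b1) and the most positive 0.51 (Eif2a). No test compared the roles described below with each other. Separation of the Torin1 arrays from all others is given below for single genes. It was not counted over all genes, so it does not set these genes apart. In RNA from whole cultures, fewer cells of a kind and less RNA per cell cannot be told apart.

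**Figure D1:**
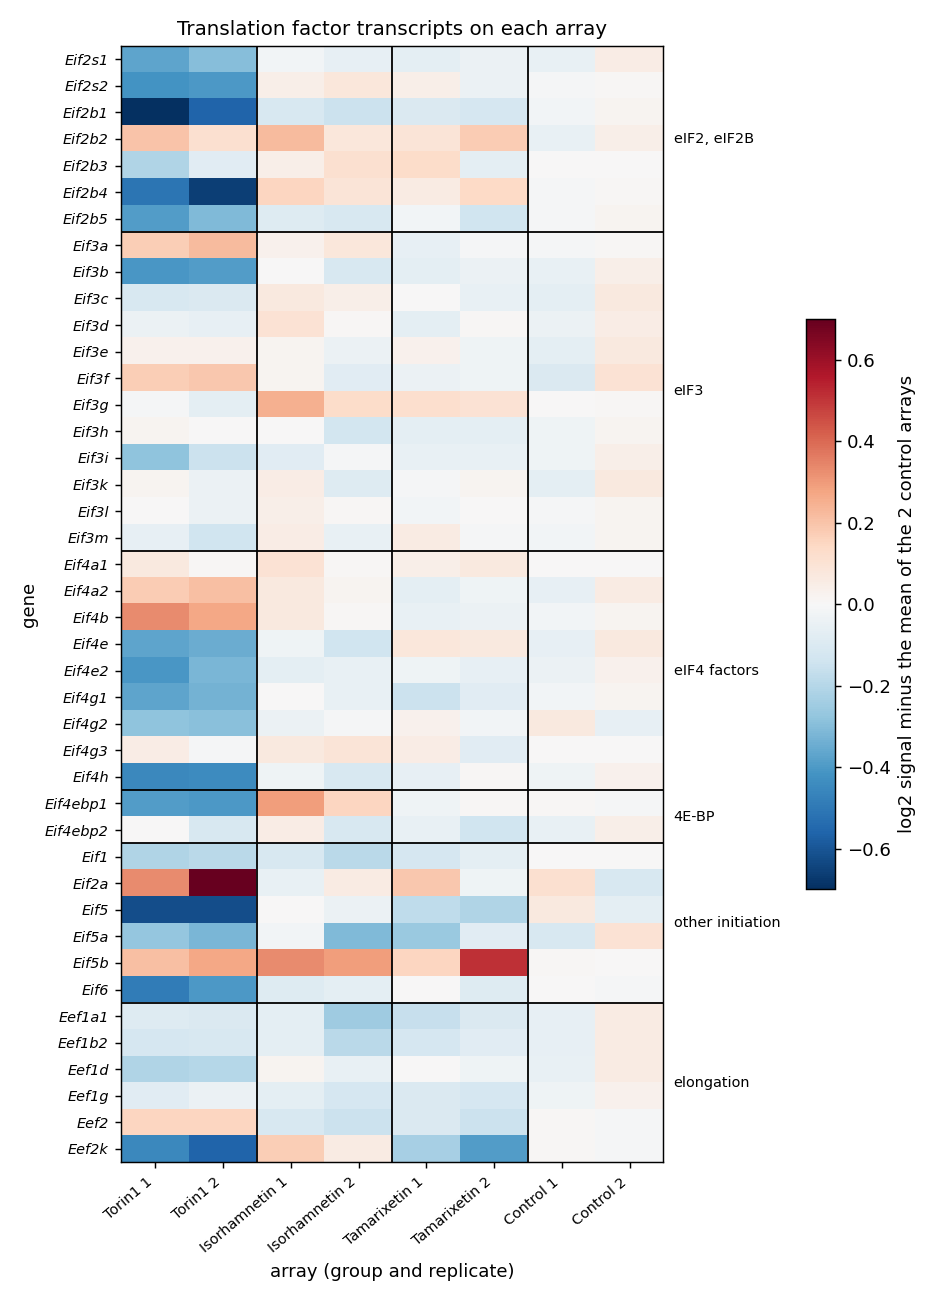
Log2 signal of the 42 factors (rows, grouped by role) on each of the 8 arrays (columns), minus the mean of the 2 control arrays; blue is lower and red higher than control, and the colour scale ends at 0.7 either way. The Torin1 columns hold most of the strong colours, with Eif2b1, Eif2b4 and Eif5 the darkest blue, while the isorhamnetin and tamarixetin columns stay paler, with their deepest colours at Eif5b, Eif4ebp1, Eif3g, Eif5a and Eef2k.

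The direction split depended on how the arrays were scaled. With 5 ways of correcting or scaling, the factors called lower with Torin1 numbered 18 (75th percentile), 16 (normexp background correction), 10 (quantile), 21 (median) and 14 (75th percentile over detected probes), and those called higher 4, 6, 11, 0 and 9 in the same order. Against the 75th percentile of all probes, median scaling moved the median of all genes by -0.18 and the 75th percentile over detected probes by 0.14, and the share of higher genes among all genes called was 39.0% in the main setting, 22.5% with median scaling and 56.6% with detected probes. Under the 4 scalings (all but normexp) 10 factors were called lower each time: Eif2s2, Eif2b1, Eif2b4, Eif2b5, Eif3b, Eif4e, Eif4h, Eif5, Eif6 and Eef2k. No factor was called higher under all 4, and Eif2a, Eif3a, Eif4a2, Eif4b and Eif5b were positive under all 4. With no filter on dim probes, which raised the genes tested to 45380, 12 factors were called, 0 higher and 12 lower, and 15.9% of all genes were called.

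**Figure D2:**
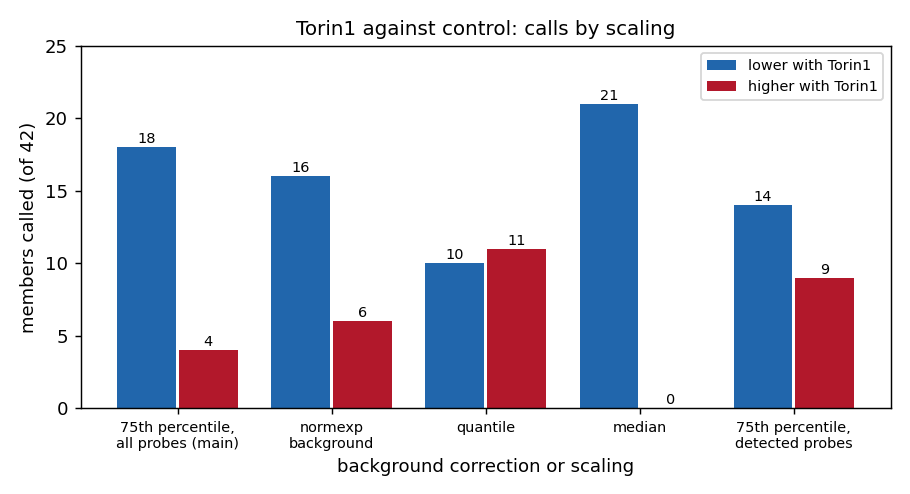
Number of the 42 factors called lower (blue) and higher (red) with Torin1 against control at adjusted p under 0.05, for 5 ways of correcting or scaling the arrays. The lower count runs between 10 and 21 and the higher count between 0 and 11, with quantile normalization the only one of the 5 with more higher than lower.

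Of the 7 subunits of eIF2 and eIF2B, 5 fell with Torin1 and 0 rose in the main setting, with a median log2 fold change of -0.36. The share called lower was 71.4%, against 30.1% of all genes, and 19.3% of all genes were called higher. Among genes above background on all 8 arrays, 6459 of 16984 were called lower. Under quantile normalization 4 were lower and 1 higher, under median scaling 5 and 0, and with detected probes 5 and 1. Eif2b1, the alpha subunit of eIF2B, read 3.17 and 3.38 with Torin1, against 3.83 and 3.79 in isorhamnetin-treated, 3.84 and 3.82 in tamarixetin-treated and 3.92 and 3.96 in control cells. Eif2b4, the delta subunit, read 3.88 and 3.73 under Torin1, 4.54 and 4.48 under isorhamnetin, 4.45 and 4.53 under tamarixetin and 4.38 and 4.40 in the control. For both genes the Torin1 arrays lay below the other 6 without overlap, with log2 fold changes against control of -0.67 ± 0.08 (SE, adjusted p = 0.00151) for Eif2b1 and -0.58 ± 0.07 (adjusted p = 0.00168) for Eif2b4. Eif2b5, the catalytic epsilon subunit that performs nucleotide exchange, read 3.18 and 3.26 with Torin1, against 3.48 and 3.46 in isorhamnetin-treated, 3.55 and 3.43 in tamarixetin-treated and 3.56 and 3.59 in control cells, a log2 fold change of -0.36 ± 0.06 (adjusted p = 0.00625).

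Core subunits of eIF2 fell as well. Eif2s1 encodes the alpha subunit, the one phosphorylated by stress kinases, and read 5.72 and 5.79 under Torin1, 6.07 and 6.03 under isorhamnetin, 6.02 and 6.05 under tamarixetin and 6.04 and 6.14 in the control. Eif2s2, the beta subunit, read 6.56 and 6.58 with Torin1, against 7.02 and 7.06 in isorhamnetin-treated, 7.02 and 6.94 in tamarixetin-treated and 6.97 and 6.99 in control cells. Both Torin1 arrays again lay below the 6 others for each gene, with log2 fold changes against control of -0.33 ± 0.06 (adjusted p = 0.00661) for Eif2s1 and -0.41 ± 0.05 (adjusted p = 0.00216) for Eif2s2. Eif2b2 and Eif2b3, the beta and gamma subunits of eIF2B, were not called in the main setting, at 0.16 (adjusted p = 0.149) and -0.15 (adjusted p = 0.203). Eif2b2 was called higher under quantile normalization (0.36, adjusted p = 0.00983) and with detected probes (0.29, 0.0257). The call for Eif2s1 was lost under quantile normalization (-0.13, adjusted p = 0.0783) and without the filter on dim probes (adjusted p = 0.0517).

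The factor eIF3 is the large scaffold that binds the small ribosomal subunit. Of its 12 listed subunits 2 were called lower (16.7%, against 30.1% of all genes) and 1 higher (8.3%, against 19.3%) in the main setting. The other 9 were not called, and the median was -0.03. These counts turned with the scaling: 1 was lower and 5 higher under quantile normalization (Eif3a, Eif3e, Eif3f, Eif3h and Eif3k higher), 1 lower and 3 higher with detected probes (Eif3a, Eif3e and Eif3f), and 2 lower and 0 higher under median scaling. Eif3b, a core subunit, read 6.23 and 6.25 under Torin1, 6.64 and 6.53 under isorhamnetin, 6.57 and 6.6 under tamarixetin and 6.59 and 6.68 in the control. Its log2 fold change was -0.40 ± 0.06 (adjusted p = 0.0043), and the Torin1 arrays lay below all others. Eif3i, which joins Eif3b and Eif3g in 1 module of the complex, read 5.68 and 5.81 with Torin1, against 5.88 and 5.95 in isorhamnetin-treated, 5.91 and 5.91 in tamarixetin-treated and 5.93 and 6.00 in control cells, a log2 fold change of -0.22 ± 0.07 (adjusted p = 0.0435). Eif3a, the largest core subunit, moved the other way, with 6.21 and 6.26 under Torin1, 6.07 and 6.12 under isorhamnetin, 5.98 and 6.03 under tamarixetin and 6.03 and 6.05 in the control. For Eif3a the Torin1 arrays lay above all others, with a log2 fold change of 0.19 ± 0.05 (adjusted p = 0.0262).

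The other subunits of eIF3 had log2 fold changes between -0.11 (Eif3c) and 0.18 (Eif3f), and the Torin1 and control arrays overlapped for Eif3d, Eif3e, Eif3h, Eif3k and Eif3l. Eif3k, a small peripheral subunit, changed its sign with the scaling, at -0.01 in the main setting and 0.20 (adjusted p = 0.0234) under quantile normalization. It was not alone in this. Eif3c (-0.11 to 0.05), Eif3d (-0.05 to 0.11), Eif3g (-0.04 to 0.11), Eif3l (-0.02 to 0.11) and Eif3m (-0.1 to 0.1) also turned positive there, without being called. Eif3e (0.03 to -0.15) and Eif3h (0.01 to -0.17) turned negative under median scaling, not called. The Eif3a call was lost under median scaling (0.01), with only the 2 groups in the fit (adjusted p = 0.0557), without the filter on dim probes (adjusted p = 0.162), and without control replicate 1 (adjusted p = 0.0966), control replicate 2 (0.0829), Torin1 replicate 1 (0.0764) or Torin1 replicate 2 (0.126). The Eif3i call was lost under quantile normalization (-0.03), with detected probes (-0.08), with only the 2 groups (adjusted p = 0.0908), without the filter on dim probes (0.169), and without control replicate 1 (0.0801), control replicate 2 (0.175), either isorhamnetin array (0.0623), either tamarixetin array (0.0641) or Torin1 replicate 1 (0.2).

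Of the 9 factors that bind the cap or unwind the mRNA leader, 5 fell, 2 rose and 2 were not called, with a median of -0.29. Those lower were 55.6% and those higher 22.2%, against 30.1% and 19.3% of all genes. The lower and higher counts were 2 and 3 under quantile normalization, 5 and 0 under median scaling, and 4 and 3 with detected probes. Eif4e, the cap-binding protein itself, read 4.15 and 4.17 with Torin1, against 4.49 and 4.38 in isorhamnetin-treated, 4.60 and 4.59 in tamarixetin-treated and 4.46 and 4.59 in control cells. Eif4g1, the scaffold that links eIF4E to the helicase and to eIF3, read 5.44 and 5.48 under Torin1, 5.81 and 5.76 under isorhamnetin, 5.66 and 5.73 under tamarixetin and 5.79 and 5.83 in the control. Both genes were lower on the Torin1 arrays than on any other, at -0.36 ± 0.07 (adjusted p = 0.00774) for Eif4e and -0.35 ± 0.06 (adjusted p = 0.0045) for Eif4g1. Eif4e2, a cap-binding relative that represses translation, read 5.28 and 5.37 with Torin1, against 5.62 and 5.64 in isorhamnetin-treated, 5.66 and 5.63 in tamarixetin-treated and 5.65 and 5.72 in control cells, a log2 fold change of -0.36 ± 0.06 (adjusted p = 0.00434). Eif4g2, a scaffold that does not bind eIF4E, read 4.75 and 4.74 under Torin1, 4.99 and 5.02 under isorhamnetin, 5.06 and 5.01 under tamarixetin and 5.10 and 4.97 in the control, a log2 fold change of -0.29 ± 0.06 (adjusted p = 0.0131).

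The paired cofactors of the helicase eIF4A went in opposite directions. Eif4h read 6.68 and 6.69 with Torin1, against 7.10 and 7.02 in isorhamnetin-treated, 7.07 and 7.14 in tamarixetin-treated and 7.10 and 7.16 in control cells. Eif4b read 5.45 and 5.39 under Torin1, 5.19 and 5.13 under isorhamnetin, 5.07 and 5.08 under tamarixetin and 5.10 and 5.14 in the control. The log2 fold change was -0.44 ± 0.06 (adjusted p = 0.00232) for Eif4h and 0.30 ± 0.05 (adjusted p = 0.00681) for Eif4b. A second Eif4b probe gave 0.04, the mean of both probes gave 0.17 (adjusted p = 0.122), and median scaling gave 0.12 (adjusted p = 0.327). The Eif4b call was also lost without the filter on dim probes (adjusted p = 0.0601).

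The helicase genes themselves differed in their calls. Eif4a2 read 4.27 and 4.30 with Torin1, against 4.16 and 4.11 in isorhamnetin-treated, 4.02 and 4.06 in tamarixetin-treated and 4.03 and 4.15 in control cells, a log2 fold change of 0.20 ± 0.06 (adjusted p = 0.0472). Eif4a1 read 8.0 and 7.94 under Torin1, 8.03 and 7.94 under isorhamnetin, 7.97 and 8.0 under tamarixetin and 7.93 and 7.93 in the control, and was not called (0.04 ± 0.06, adjusted p = 0.565), though it was called higher under quantile normalization (0.17, 0.0322) and with detected probes (0.18, 0.0476). The Eif4a2 call was lost with every array left out but control replicate 2 (adjusted p from 0.0652 to 0.185), under median scaling (0.02), without the filter on dim probes (0.169), with only the 2 groups (0.0934) and with the mean of its probes (0.15, adjusted p = 0.128). Among the factors that fell, Eif4e was lost without the filter on dim probes (adjusted p = 0.0506), Eif4e2 (-0.15, 0.0587) and Eif4g1 (-0.15, 0.0673) under quantile normalization, and Eif4g2 under normexp (0.0558), quantile (-0.07, 0.467), detected probes (-0.15, 0.129) and no filter (0.082), and without control replicate 1 (0.0544), Torin1 replicate 1 (0.0591) or Torin1 replicate 2 (0.0618).

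Eif4ebp1, the inhibitor of eIF4E that mTOR phosphorylates, fell with Torin1. It read 5.05 and 5.04 with Torin1, against 5.73 and 5.59 in isorhamnetin-treated, 5.41 and 5.45 in tamarixetin-treated and 5.45 and 5.43 in control cells. Its Torin1 arrays were the lowest of the 8 and its isorhamnetin arrays the highest. The log2 fold change with Torin1 was -0.39 ± 0.06 (adjusted p = 0.00453), and -0.16 (adjusted p = 0.0597) under quantile normalization. Its relative Eif4ebp2 read 2.28 and 2.17 under Torin1, 2.33 and 2.17 under isorhamnetin, 2.23 and 2.14 under tamarixetin and 2.23 and 2.32 in the control; the groups overlapped and it was not called (-0.06 ± 0.08, adjusted p = 0.607).

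Of the 6 other factors named as initiation factors (Eif1, Eif2a, Eif5, Eif5a, Eif5b and Eif6), 3 fell, 1 rose and 2 were not called. Eif5a was grouped here by its name and not with the elongation genes. The lower and higher counts were 2 and 1 under quantile normalization and with detected probes, and 4 and 0 under median scaling. Eif5, which triggers GTP hydrolysis by eIF2 at the start codon, read 4.20 and 4.20 with Torin1, against 4.82 and 4.78 in isorhamnetin-treated, 4.64 and 4.61 in tamarixetin-treated and 4.89 and 4.75 in control cells. Its log2 fold change, -0.62 ± 0.06 (adjusted p = 0.00105), had the smallest adjusted p of the 42 factors. Eif6, which keeps the large ribosomal subunit from joining early, read 4.85 and 4.94 under Torin1, 5.25 and 5.27 under isorhamnetin, 5.34 and 5.25 under tamarixetin and 5.34 and 5.33 in the control, a log2 fold change of -0.44 ± 0.06 (adjusted p = 0.00235). For Eif5 and Eif6 no Torin1 array reached the level of any other array.

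Eif1, which guards the accuracy of start-codon choice, read 6.63 and 6.65 with Torin1, against 6.73 and 6.65 in isorhamnetin-treated, 6.72 and 6.77 in tamarixetin-treated and 6.84 and 6.84 in control cells, a log2 fold change of -0.20 ± 0.05 (adjusted p = 0.0286). Its sign turned under quantile normalization (0.01). The call was also lost under normexp (-0.13, adjusted p = 0.0865), with detected probes (-0.06), without the filter on dim probes (0.164), and without control replicate 1 (0.089), control replicate 2 (0.103), Torin1 replicate 1 (0.123) or Torin1 replicate 2 (0.0944). Eif2a, a factor apart from the eIF2 complex that can deliver initiator tRNA in other ways, read 1.60 and 1.97 under Torin1, 1.22 and 1.33 under isorhamnetin, 1.46 and 1.24 under tamarixetin and 1.38 and 1.16 in the control. Its log2 fold change, 0.51 ± 0.16 (adjusted p = 0.0388), was the most positive among the factors and had the widest error. The call was lost under median scaling (0.34, adjusted p = 0.183), without the filter on dim probes (0.108), with only the 2 groups (0.076), and without control replicate 1 (0.62, adjusted p = 0.0615), control replicate 2 (0.40, 0.172), either isorhamnetin array (0.0624) or Torin1 replicate 2 (0.33, 0.145). Eif5a, which helps ribosomes past difficult peptide bonds, was not called at its brightest probe (-0.29 ± 0.13, adjusted p = 0.108), while its second probe gave -0.52 and the mean of the probes -0.41 (adjusted p = 0.00393). Eif5b, the GTPase of subunit joining, was not called (0.23 ± 0.12, adjusted p = 0.158).

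**Figure D3:**
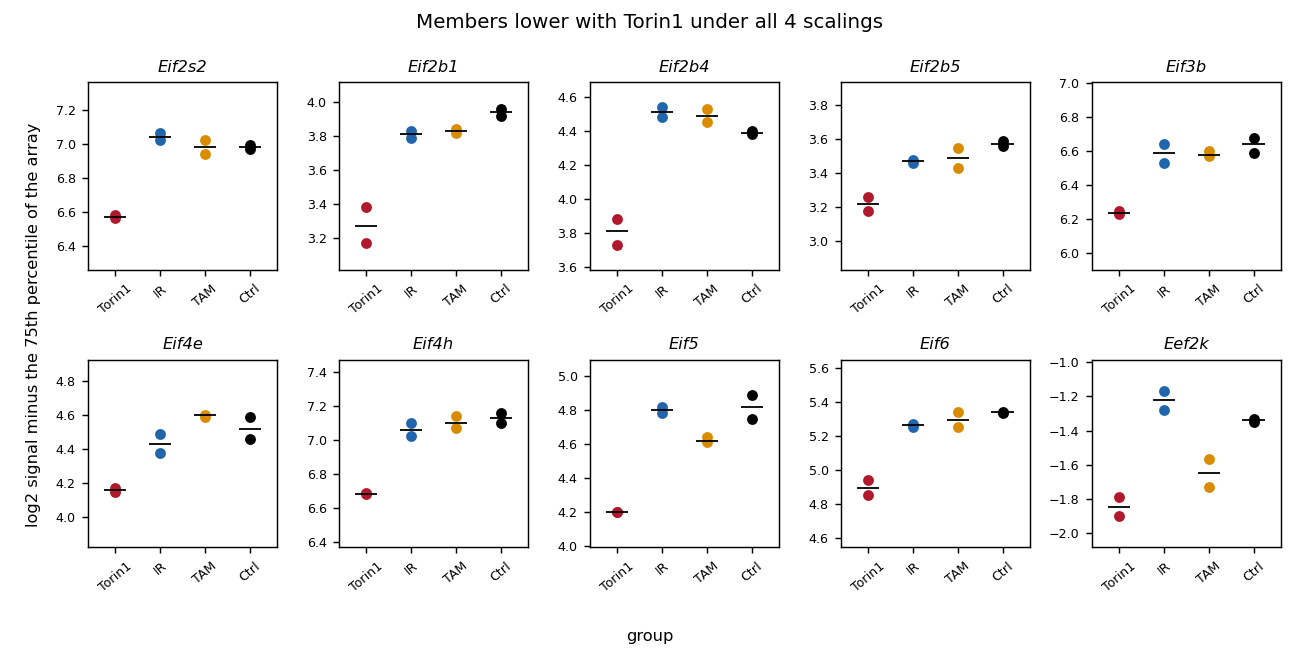
Log2 signal minus the 75th percentile of the array for the 10 factors called lower with Torin1 under all 4 scalings; points are the 2 arrays of each group (red Torin1, blue isorhamnetin IR, orange tamarixetin TAM, black control Ctrl) and bars their mean, each panel spanning the same height in log2 units. In every panel both Torin1 points lie below the other 6, and Eef2k is the panel where tamarixetin comes closest to them. Such separation was not counted over all genes.

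Of the 6 elongation genes, 2 fell with Torin1, 0 rose and 4 were not called. The share lower was 33.3%, against 30.1% of all genes, and 19.3% of all genes were higher. Among the 6, 1 was lower and 1 higher under quantile normalization and with detected probes, and 4 were lower under median scaling. Eef2k, the kinase that inactivates elongation factor eEF2, read -1.79 and -1.90 with Torin1, against -1.17 and -1.28 in isorhamnetin-treated, -1.57 and -1.73 in tamarixetin-treated and -1.33 and -1.35 in control cells. Eef2, its target and the translocation factor, read 8.71 and 8.71 under Torin1, 8.45 and 8.41 under isorhamnetin, 8.46 and 8.41 under tamarixetin and 8.57 and 8.55 in the control. The kinase fell (-0.51 ± 0.08, adjusted p = 0.00395), whereas Eef2 missed the threshold in the main setting (0.15 ± 0.05, adjusted p = 0.0502) and was called under 6 of the 19 alternatives, among them quantile normalization (0.28, adjusted p = 0.0204). Other kept probes of Eef2 gave 0.11 and 0.00.

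Eef1d, a subunit of the complex that recharges eEF1A, read 7.13 and 7.14 with Torin1, against 7.36 and 7.29 in isorhamnetin-treated, 7.34 and 7.31 in tamarixetin-treated and 7.29 and 7.40 in control cells, a log2 fold change of -0.21 ± 0.06 (adjusted p = 0.0349). That call was lost when any array but control replicate 1 was left out (adjusted p from 0.0504 to 0.152), under quantile normalization (-0.06), with detected probes (-0.07), without the filter on dim probes (0.168) and with only the 2 groups (0.073). Eef1a1, which brings aminoacyl-tRNA to the ribosome, read 8.79 and 8.78 under Torin1, 8.81 and 8.63 under isorhamnetin, 8.72 and 8.78 under tamarixetin and 8.82 and 8.94 in the control. It was not called (-0.10 ± 0.08, adjusted p = 0.366), nor were its exchange factors Eef1b2 (-0.12) and Eef1g (-0.06). Under median scaling Eef1a1 (-0.28, adjusted p = 0.0498) and Eef1b2 (-0.30, 0.0376) were called lower.

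**Figure D4:**
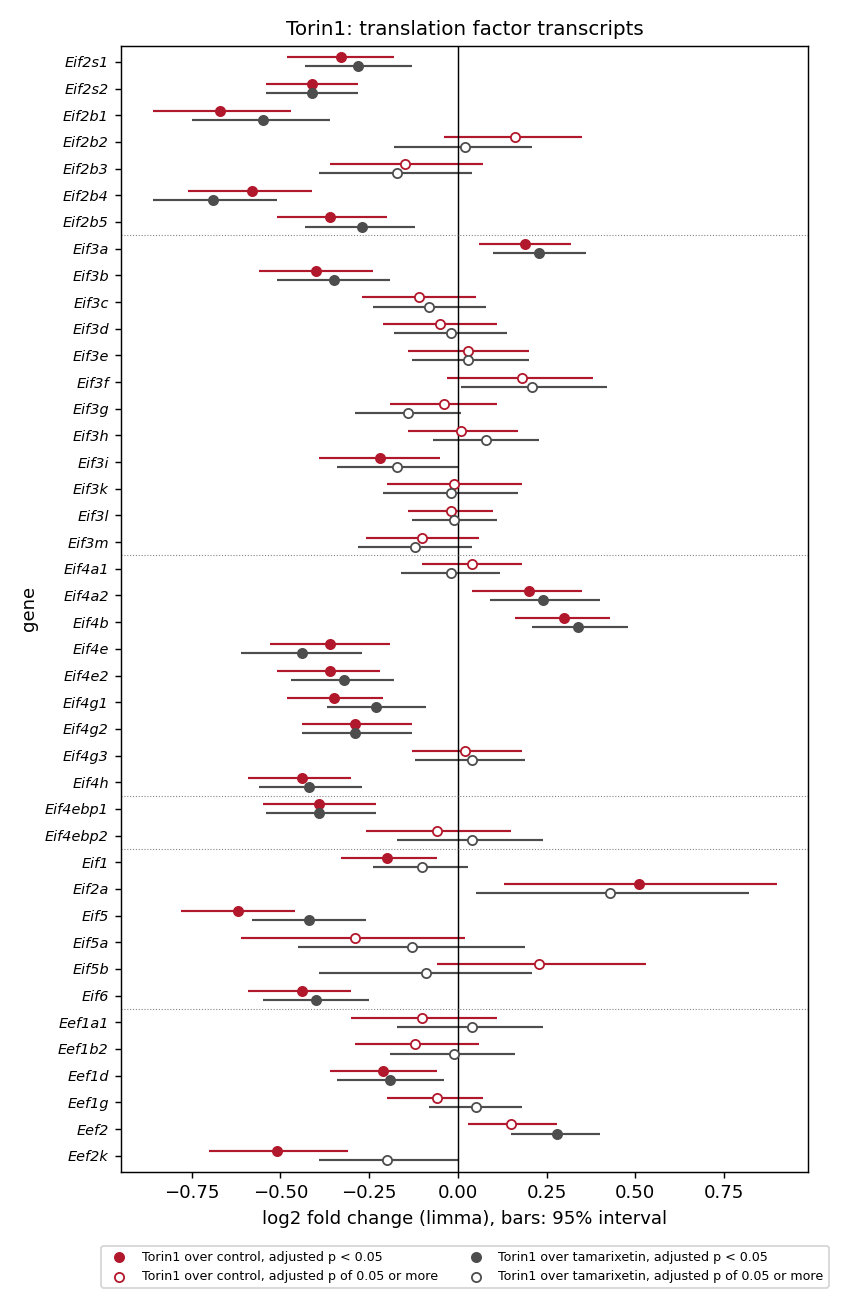
Log2 fold change (points) with 95% interval (lines) of each factor for Torin1 over control (red) and Torin1 over tamarixetin (grey), grouped by role; filled points have adjusted p under 0.05. Red points run between -0.67 and 0.51 and grey points between -0.69 and 0.43, with the filled points of eIF2 and eIF2B all to the left of 0.

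The factors whose mRNAs are classically listed as TOP mRNAs were counted apart from the others, as a description without a test. Of 9 TOP factors (Eef1a1, Eef1b2, Eef1d, Eef1g, Eef2, Eif3e, Eif3f, Eif3h and Eif4b) 1 fell and 1 rose, with a median of 0.01, whereas of the 33 others 17 fell and 3 rose, with a median of -0.22. The median of all genes was -0.10, and of all genes 30.1% were called lower and 19.3% higher. The TOP counts turned with the scaling: 0 were lower and 5 higher under quantile normalization, 0 and 4 with detected probes, and 3 and 0 under median scaling. For the 33 others the lower and higher counts were 10 and 6, 14 and 5, and 18 and 0 in those settings. The split of all genes turned too: of all genes called, 44.1%, 56.6% and 22.5% were higher in the same order. A pyrimidine run of 8 or more letters within 15 bases of the annotated start was found in 6 of the 33 factors with a RefSeq promoter (18.2%), against 13.9% of 27025 genes. These were Eef1a1 and Eif3f of the TOP list, and Eif2b2, Eif2b5, Eif3l and Eif4e outside it. The TOP factors Eef1b2, Eef2 and Eif4b had a window but no such run, and Eef1d, Eef1g, Eif3e and Eif3h had no window. The start windows of the TOP factors Eef1a1 and Eif3f are shown because both hold such a run, in capitals, at the annotated start; the windows are 15 bases either side of it, from RefSeq on GRCm38.p6, at chr9:78481710-78481739 on the minus strand and chr7:108934400-108934429 on the plus strand.
Eef1a1: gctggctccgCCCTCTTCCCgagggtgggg
Eif3f: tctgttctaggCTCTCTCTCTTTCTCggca
Neither gene was called with Torin1 in the main setting, at -0.10 for Eef1a1 and 0.18 (adjusted p = 0.123) for Eif3f. Of the factors with a run outside the TOP list, Eif2b5 (-0.36) and Eif4e (-0.36) were called lower. Eif2b2 (0.16) and Eif3l (-0.02) were not called.

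The promoters of the factors were searched for CACGTG, the E-box that reads the same on both strands and that MYC and the TFEB family can bind, and for TGATGCA on both strands, a form of the element that ATF4 with a C/EBP partner can bind. RefSeq windows of 250 bases before to 50 after the start were at hand for 33 of the 42 factors (44 windows on GRCm38.p6). The E-box was present in 10 of the 33 (30.3%), against 8.1% of 27025 genes and 8.9% of 17492 protein-coding genes. It was present in 4 of 13 factors lower with Torin1 (30.8%), in 1 of 4 higher and in 5 of 16 not called (31.2%), so factors with the letters were found in each class at a like share. TGATGCA was in 0 of 33, against 3.6% of all genes. The 100 bases before the start are shown for 4 factors that fell (Eif4e, Eif4g1, Eif4h and Eef2k) and 2 that were not called (Eef2 and Eif3f), so that the letters can be seen in both classes; capitals mark the E-box. The windows are chr3:138527168-138527267 (plus) for Eif4e, chr16:20672627-20672726 (plus) for Eif4g1, chr5:134639410-134639509 (minus) for Eif4h, chr7:120842731-120842830 (plus) for Eef2k, chr10:81176531-81176630 (plus) for Eef2 and chr7:108934315-108934414 (plus) for Eif3f.
Eif4e: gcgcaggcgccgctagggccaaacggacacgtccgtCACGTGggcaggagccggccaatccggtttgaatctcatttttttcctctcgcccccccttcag
Eif4g1: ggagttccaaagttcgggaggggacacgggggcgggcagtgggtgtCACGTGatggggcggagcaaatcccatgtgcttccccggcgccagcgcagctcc
Eif4h: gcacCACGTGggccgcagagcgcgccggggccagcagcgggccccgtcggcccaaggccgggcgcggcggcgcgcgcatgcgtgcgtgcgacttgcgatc
Eef2k: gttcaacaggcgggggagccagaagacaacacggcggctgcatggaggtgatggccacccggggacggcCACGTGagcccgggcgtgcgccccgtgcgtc
Eef2: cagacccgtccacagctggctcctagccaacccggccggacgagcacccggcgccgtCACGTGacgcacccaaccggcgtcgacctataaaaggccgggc
Eif3f: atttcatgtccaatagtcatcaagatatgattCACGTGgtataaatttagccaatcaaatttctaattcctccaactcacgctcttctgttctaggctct
In these windows the first base of the E-box lies 64, 54, 96, 31, 43 and 68 bases before the start, in the order printed.

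Torin1 was also set against tamarixetin, the pair that shared a slide row. Here 15 factors were lower and 4 higher with Torin1, against 24.1% and 19.1% of all genes, with a median of -0.11 (all genes -0.03). With only probes above background on all 8 arrays, 20 factors and 52.7% of 16984 genes were called. Both comparisons use the same Torin1 arrays, so their values stand side by side and are not independent. Against tamarixetin the log2 fold change was -0.69 ± 0.07 for Eif2b4 (adjusted p = 0.00113), -0.55 ± 0.08 for Eif2b1 (0.00317), -0.44 ± 0.07 for Eif4e (0.00446), -0.42 ± 0.06 for Eif5 (0.00404) and -0.39 ± 0.06 for Eif4ebp1 (0.00542). Eif2s2 (-0.41), Eif2b5 (-0.27), Eif2s1 (-0.28), Eif3b (-0.35), Eif4e2 (-0.32), Eif4g1 (-0.23), Eif4g2 (-0.29), Eif4h (-0.42), Eif6 (-0.40) and Eef1d (-0.19) were lower too. The factors higher with Torin1 were Eif4b at 0.34 ± 0.05 (adjusted p = 0.00474), Eef2 at 0.28 ± 0.05 (0.00733), Eif4a2 at 0.24 ± 0.06 (0.0267) and Eif3a at 0.23 ± 0.05 (0.0174). Eef2k, which fell against control, missed the threshold against tamarixetin (-0.20 ± 0.08, adjusted p = 0.0972), as did Eif2a (0.43, 0.0722), Eif1 and Eif3i.

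Several of these calls depended on single arrays or on the setting. Without Torin1 replicate 1 the calls of Eif2s1 (adjusted p = 0.0772), Eif2b5 (0.0975), Eif3a (0.0601), Eif4a2 (0.0885), Eif4g1 (0.104), Eif4g2 (0.0662) and Eef1d (0.167) were lost, and without Torin1 replicate 2 those of Eif3a (0.0947), Eif4a2 (0.116), Eif4g1 (0.0634), Eif4g2 (0.0706) and Eef1d (0.144). Without tamarixetin replicate 1 those of Eif2b5 (0.0737), Eif3a (0.0734), Eif4a2 (0.1), Eif4g2 (0.0655) and Eef1d (0.149) were lost, without tamarixetin replicate 2 those of Eif2s1 (0.0521), Eif4a2 (0.0626), Eif4g1 (0.0787) and Eef1d (0.103), and Eef1d also without either control (0.0501) or isorhamnetin (0.0673) array. Without the filter on dim probes 9 factors were called, against 12.3% of all genes. The lower and higher counts were 14 and 0 under median scaling, 11 and 7 under quantile normalization, and 12 and 8 with detected probes. Under quantile normalization the calls of Eif2s1 (-0.15, adjusted p = 0.0622), Eif4e2 (-0.16, 0.063), Eif4g1 (-0.08, 0.269), Eif4g2 (-0.11, 0.263) and Eef1d (-0.13, 0.057) were lost, and with only the 2 groups those of Eif2b5 (0.0699), Eif3a (0.0597), Eif4g1 (0.0637) and Eef1d (0.0718).

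With isorhamnetin 0 of the 42 factors had an adjusted p under 0.05 by limma, and with tamarixetin 0. The background was low as well: 0.543% of all genes were called with isorhamnetin and 0.079% with tamarixetin. At an unadjusted p under 0.05 there were 5 factors with isorhamnetin, against 15.4% of all genes, and 4 with tamarixetin, against 14.3%. As shares of the 42 these are 11.9% and 9.5%. The median log2 fold change of the factors was -0.02 with isorhamnetin and -0.04 with tamarixetin (all genes 0.00 and -0.05). The 95% intervals of the factors ran from -0.48 to 0.60 with isorhamnetin and from -0.51 to 0.62 with tamarixetin, with a median half-width of 0.16.

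The 5 factors with an unadjusted p under 0.05 for isorhamnetin were Eif4ebp1 (0.22 ± 0.06, adjusted p = 0.206), Eif3g (0.19, 0.242), Eif1 (-0.15, 0.274), Eef2 (-0.13, 0.315) and Eif5b (0.30 ± 0.12, 0.321). For tamarixetin they were Eef2k (-0.31 ± 0.08, adjusted p = 0.215), Eif5 (-0.19, 0.294), Eif5b (0.32 ± 0.12, 0.324) and Eef2 (-0.13, 0.342). None of these values passed the test across all genes. The value of Eef2 was the same for both flavonols at the probe used, and both values rest on the same control arrays. Other kept probes of Eef2 gave -0.08 and -0.18 with isorhamnetin, and -0.22 and -0.31 with tamarixetin. With Torin1 the value of Eef2 had the other sign (0.15) in the main setting, but was -0.03 under median scaling.

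**Figure D5:**
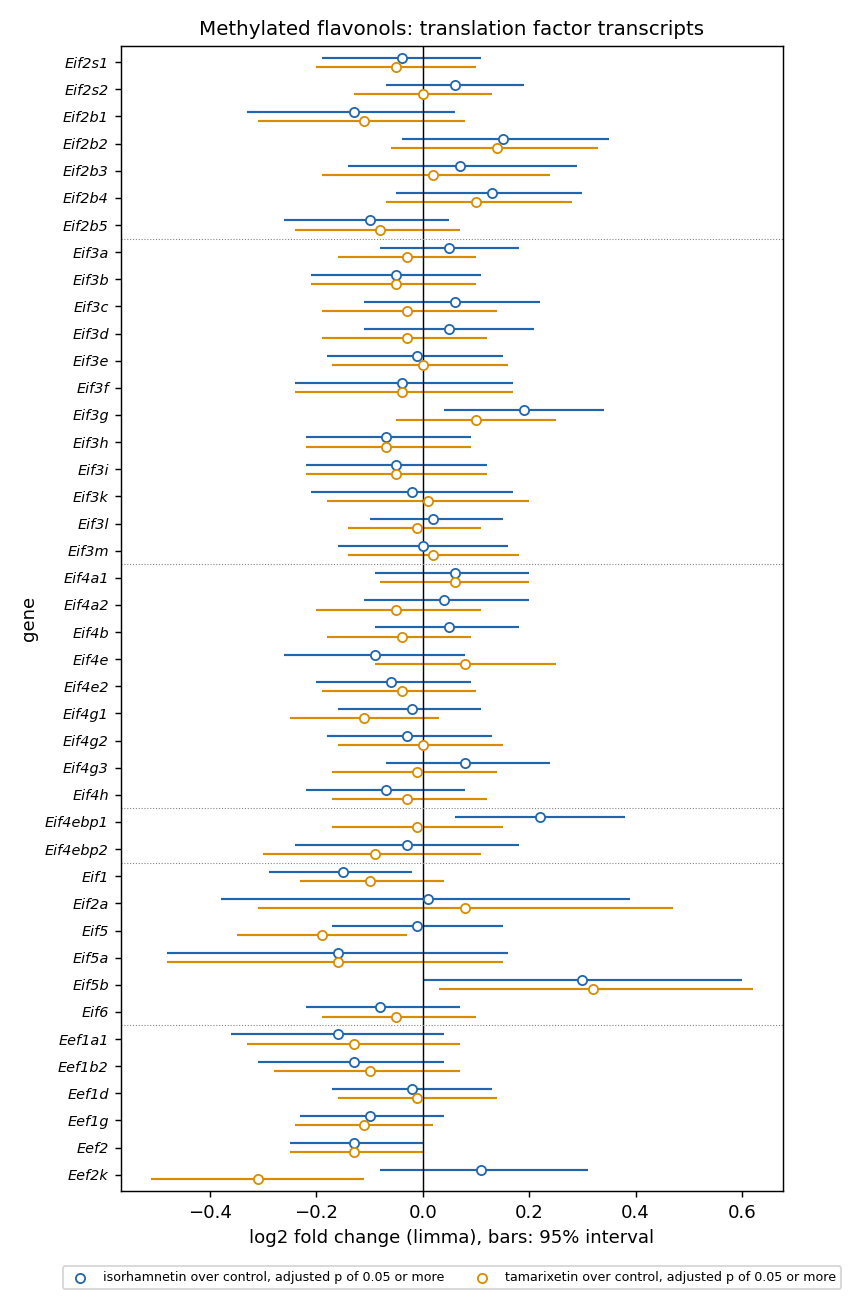
Log2 fold change (points) with 95% interval (lines) of each factor for isorhamnetin over control (blue) and tamarixetin over control (orange), grouped by role. All points are open, as none had an adjusted p under 0.05, and Eif4ebp1 and Eef2k are where the 2 compounds lie furthest apart.

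The isomers were compared with each other at the same dose, 10 µM, and the same time, 6 h. None of the 42 factors differed between isorhamnetin and tamarixetin at adjusted p under 0.05 (limma), against 0.827% of all genes, and 3 had an unadjusted p under 0.05, against 13.3% of all genes. These were Eef2k (0.42 ± 0.08, 95% interval 0.23 to 0.62, adjusted p = 0.112), Eif4ebp1 (0.23 ± 0.06, 0.07 to 0.38, adjusted p = 0.228) and Eif5 (0.18 ± 0.06, 0.02 to 0.34, adjusted p = 0.327), each higher with isorhamnetin. Eef2k was called when no filter on dim probes was used (0.42, adjusted p = 0.0224), a setting that called 14021 genes in this comparison, and with the mean of its probes (0.56, adjusted p = 0.0378). The intervals of all 42 factors ran from -0.46 to 0.62, and a p above the threshold does not show that the isomers act alike.

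Other genes of the same machinery were counted in lists beside the 42. Of 25 further translation factors 24 were tested, and with Torin1 10 were lower and 2 higher than control, with a median of -0.17. The 12 called of 24 were a share near the 49.4% of all genes, and 41.7% were lower, against 30.1% of all genes. Among genes above background on all 8 arrays, 6459 of 16984 were lower. Ddx3x, a helicase that helps scanning, read 5.5 and 5.57 with Torin1, against 6.38 and 6.50 in control cells, a log2 fold change of -0.91 ± 0.06 (adjusted p = 0.000297), which is more negative than that of any of the 42 factors. Gspt1, the GTPase of translation termination, fell by 0.50 on the log2 scale (adjusted p = 0.00188), Eif1ax, a partner of eIF1, by 0.45 (0.00293) and Eefsec, the elongation factor for selenocysteine, by 0.42 (0.0043). Denr, a reinitiation and recycling factor, was higher by 0.49 (adjusted p = 0.0127) and Paip1, a partner of poly(A)-binding protein, by 0.46 (0.00408).

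Of the 7 genes for eIF2 kinases, phosphatase subunits and a kinase inhibitor, 4 were lower and 2 higher with Torin1 than in control cells. Those lower were 57.1% and those higher 28.6%, against 30.1% and 19.3% of all genes. Impact, an inhibitor of the kinase GCN2, read 3.30 and 3.36 with Torin1, against 2.63 and 2.70 in isorhamnetin-treated, 2.52 and 2.44 in tamarixetin-treated and 2.44 and 2.28 in control cells, a log2 fold change with Torin1 of 0.97 ± 0.08 (adjusted p = 0.000461). Eif2ak2, the kinase PKR that responds to double-stranded RNA, read 1.77 and 1.78 under Torin1, 2.32 and 2.23 under isorhamnetin, 2.57 and 2.48 under tamarixetin and 2.59 and 2.72 in the control. It fell by 0.88 with Torin1 (adjusted p = 0.000462), and its value with isorhamnetin was -0.38 (adjusted p = 0.0957). The kinases Eif2ak3 (PERK, -0.33) and Eif2ak4 (GCN2, -0.23) and the constitutive phosphatase subunit Ppp1r15b (-0.30) were lower, and the stress-induced subunit Ppp1r15a was higher (0.37, adjusted p = 0.0253).

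Of 10 genes that carry mTOR or MAP kinase signals to the eIF4 factors, 1 was higher and 2 lower with Torin1. Those higher were 10.0% and those lower 20.0%, against 19.3% and 30.1% of all genes. Rptor, which recruits substrates to mTOR complex 1, read 3.83 and 3.76 with Torin1, against 3.13 and 3.16 in control cells, a log2 fold change of 0.65 ± 0.07 (adjusted p = 0.000946). Rps6kb2, an S6 kinase, fell by 0.61 (adjusted p = 0.00175) and Mknk1, a kinase that phosphorylates eIF4E, by 0.30 (0.0191). Of 9 mitochondrial translation factors 4 were lower and 0 higher: Tufm (-0.44, adjusted p = 0.0015), Mtrf1l (-0.32), Gfm2 (-0.22) and Tsfm (-0.20). The share lower was 44.4%, against 30.1% of all genes and 6459 of the 16984 above background on all 8 arrays. In these 4 lists 0 genes were called with isorhamnetin or tamarixetin against control.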

How the data were processed

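RNA from 8 samples was read on 1-colour arrays with Agilent Feature Extraction 10.7.1.1, per the submitters' processing notes. Per the file headers, background had been subtracted from the processed intensity. The authors also deposited log2 values. Log2 intensity minus each array's 75th percentile, centred per probe, matched them within 0.01 on all 8 arrays for 99.8% of probes. No mean pixel signal was in the files, so the normexp alternative (offset 50) used the median pixel signal.

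Spots with outlier flags were dropped (323 probes), replicate spots averaged, and probes not well above background on both arrays of any group were left out. Of 56605 probes 32994 had a symbol through RefSeq names and 23611 had none. The brightest probe represented a gene; 68 probes were on the array for the 42 factors and 65 were kept. All 8 arrays entered 1 fit of limma 3.58.1 (R 4.3.3, lmFit and eBayes, 4 residual degrees of freedom), two-sided, Benjamini-Hochberg adjusted over 21528 genes, with a threshold of 0.05. An exact test of 2 arrays against 2 cannot pass that threshold, and the number of arrays limits precision. The script was tested on simulated data.

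The members, lists, tests and named-gene rule were chosen with earlier results of these data known. The rule gave every array's value for factors called in any comparison and for a panel of 10, and named at most 6 called genes per further list. The 19 alternatives changed background correction, scaling, filter, probe summary, variance model, samples in the fit and single arrays. Promoter windows came from RefSeq; 9 factors had none. The array header names an older build, so no probe coordinates are given.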

Additional observations from a re-analysis of the deposited data

How the results depend on the processing

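Across 19 alternatives, 9 of the 22 Torin1 calls against control and 8 of the 19 against tamarixetin were kept in every one. The median of the factors for Torin1 against control turned to 0.03 under quantile normalization and 0.02 with detected probes, and was -0.29 under median scaling; against tamarixetin it was -0.02, -0.01 and -0.23 in the same settings, and that of tamarixetin against control was 0.03 under quantile normalization. Among factors called in the main setting or in the alternative, Eif1 (0.01) and Eif3k (0.20) with Torin1 changed sign, both under quantile normalization. Without the filter on dim probes 12 factors were called for Torin1 against control, 9 against tamarixetin and 1 between the isomers, which was also 1 with the mean of probes; all genes called were 5587 for Torin1 against tamarixetin, 6 for isorhamnetin, 12526 for tamarixetin and 14021 between the isomers. Against main counts of 117, 17 and 178, genes called for isorhamnetin, tamarixetin and between the isomers were 7 (tamarixetin) and 94 (isomers) with normexp, 13 (isorhamnetin) and 116 (isomers) with median scaling, 376 (isorhamnetin) and 0 (tamarixetin) with probes above background on all arrays, 436, 88 and 270 with trend and robust eBayes, and 0 (isorhamnetin) and 1 (isomers) with only the groups compared. Among Torin1 genes called against tamarixetin, 44.2% were higher in the main setting, 31.9% with median scaling and 57.4% with detected probes. With 1 array left out, genes called ranged from 5 to 75 for isorhamnetin, 0 to 146 for tamarixetin and 39 to 272 between the isomers, and factors called from 16 to 20 for Torin1 against control and 13 to 19 against tamarixetin; a lone array was assumed to vary like the other groups. Deviations of arrays with the same replicate number correlated at -0.13 to 0.08 across genes. These values cannot show how the replicates were made, as a batch that touched few genes would not be seen. The replicate block gave 4, 11 and 43 genes for isorhamnetin, tamarixetin and the isomers, and 18 factors in each Torin1 comparison. Against control it lost Eef1d (adjusted p = 0.0669), Eif4a2 (0.0743), Eif1 (0.059) and Eif2a (0.0669). Against tamarixetin it lost Eef1d (0.0884). Sign changes of values not called in either setting numbered 32, 35, 49, 30 and 32 of 798 for Torin1, isorhamnetin and tamarixetin against control, isorhamnetin against tamarixetin and Torin1 against tamarixetin. The cause of these changes was not tested.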
